A study of Mus musculus with 6 samples.

Results

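A set of nuclear genes that regulate the making of mitochondria, here called the biogenesis regulators, was measured in cochlear samples of *Cmah*-null mice and of WT mice, all aged 12 months. The 10 genes are *Ppargc1a*, *Ppargc1b*, *Esrra*, *Esrrg*, *Nrf1*, *Gabpa*, *Tfam*, *Tfb1m*, *Tfb2m* and *Polg*. They were taken by gene symbol with every probe they have, which gave 13 of the 25697 probes and 10 of the 18138 gene symbols of the Illumina MouseRef-8 v2 array. Total cochlear RNA of 3 WT and of 3 *Cmah*-null samples was hybridized to 1 array per sample. The strain is C57BL/6 in the sample records and C57BL/6J in the methods, for both groups, and the *Cmah*-null group was the tm1Ykoz knockout. That allele removes CMP-Neu5Ac hydroxylase, the enzyme that makes the sialic acid Neu5Gc, in every cell of the mouse, so that no result can be tied to the cochlea alone. No other allele or treatment was named for either group, and the sex of the mice was not given. In the data columns the *Cmah*-null samples carry the name "old", and columns and sample records were matched by number. The sample records do not name the mouse behind each array, and p-values measure the spread between these samples.

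Values are log2 bead signals that the authors quantile normalized, differences are *Cmah*-null minus WT, and a probe counted as detected where its detection p was under 0.05. Between 13873 and 15223 probes were detected per array. *Cmah*-null replicate 3 stood apart, with an SD of the log2 difference from each other array of 0.763 to 0.851 over the 12410 probes detected on all arrays, against 0.138 between *Cmah*-null replicates 1 and 2 and 0.391 to 0.564 for the other pairs. Values without replicate 3 are therefore given beside the regulators and the medians of the gene lists. The records do not say whether *Cmah*-null replicates 1 and 2, the closest pair, came from separate mice. The SDs and p-values count them as separate samples, and averaging them was run as an alternative. Arrays also differed in the number of beads behind a probe. The median was 32 to 34 on the arrays of WT replicate 1 and *Cmah*-null replicates 1 and 2, and 38 to 39 on the other arrays. Each set held both genotypes, and differences within each set are given too. In each set 1 genotype had only 1 array, WT replicate 1 in the first and *Cmah*-null replicate 3 in the second. Differences by set, and fits with the bead set as a block, lean on those arrays and are not independent checks. The probe for *Cmah* was detected on 1 WT and 2 *Cmah*-null arrays, at a mean of 7.47 ± 0.34 (SD, n = 3) and 7.73 ± 0.40 (SD, n = 3) in that order, and so could not check the genotype. Of 13 matched markers of cochlear supporting cells and stria, 10 were detected on every array of at least 1 group. Of 8 hair cell markers 4 were so detected, while *Pou4f3*, *Atoh1*, *Slc26a5* (prestin) and *Strc*, which define hair cells, were detected on no array. Markers of skeletal muscle (12 of 12) and brown fat (5 of 7) were also detected on every array of a group.

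Mitochondria carry their own small genome, but nearly all of their proteins, and all the proteins that copy and read that genome, are encoded in the nucleus. The coactivators PGC-1α (*Ppargc1a*) and PGC-1β (*Ppargc1b*) bind to transcription factors, chiefly the estrogen-related receptors ERRα (*Esrra*) and ERRγ (*Esrrg*) and the nuclear respiratory factors NRF1 (*Nrf1*) and GABP (*Gabpa* encodes its DNA-binding subunit, also called NRF2). These factors switch on the nuclear genes of the respiratory chain and the genes of the mitochondrial transcription and replication machinery. That machinery includes TFAM, which packages mitochondrial DNA and starts its transcription, TFB2M, which opens the mitochondrial promoter, TFB1M, a methyltransferase of the mitochondrial ribosomal RNA, and POLG, the catalytic subunit of the mitochondrial DNA polymerase. In the cochlea the stria vascularis and the hair cells have high energy demands, and *Ppargc1a* is also rich in muscle and brown fat.

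The letters that NRF1, GABP, ERR and CREB factors are known to bind were looked for on both strands of the promoter windows of these genes, which run from 250 bases before to 50 after a start site (RefSeq, GRCm38.p6). Of the 10 genes, 9 had 13 windows in all, among 32851, and *Ppargc1b* was not in the table. The sites are shown as letters only, and no link between them and the signals that follow was tested. The long form of the NRF1 site (GCGCA, any base, then GCGC) was in 4.60% of all windows and the ERR site, TNAAGGTCA, in 1.28%, and neither was in a window of the 10 genes. A shorter NRF1 form, GCATGCGC, searched after the long form was not found, was in 2.71% of all windows and in those of *Esrra*, 34 bases before the start, and *Tfb2m*, 13 bases after it. The GABP site, CCGGAAG, was in 8.86% of all windows and in those of *Gabpa* itself, 93 bases before the start, *Polg*, 38 before, and *Tfam*, 47 before. The 5 sites are given with 30 bases each, 5′ to 3′ on the strand of the gene, with the motif in capitals. They lie at chr19:6921824-6921853, minus strand (*Esrra*), chr1:179546245-179546274, minus strand (*Tfb2m*), chr16:84835020-84835049, plus strand (*Gabpa*), chr7:79466293-79466322, minus strand (*Polg*), and chr10:71238073-71238102, minus strand (*Tfam*).
Esrra: ccccctgttttGCATGCGCaggccggcccc
Tfb2m: ctaggtcgttcGCATGCGCcattcgtaatg
Gabpa: gagggtaagtgCTTCCGGgtccctcagcta
Polg: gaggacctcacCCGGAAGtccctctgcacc
Tfam: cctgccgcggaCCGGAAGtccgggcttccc

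*Ppargc1a* and *Tfb1m* were the 2 regulators whose *Cmah*-null arrays all lay below their WT arrays, and their upstream sequences are shown whole for that reason. TGACG, the core of the site that CREB and ATF factors bind, was in 20.8% of all windows, including those of *Ppargc1a*, 49 bases before the start, *Tfb1m*, 87 and 132 bases before it, and *Polg*, 90 bases before it. The 250 bases before the start are printed 5′ to 3′ on the strand of the gene, with TGACG or its reverse complement CGTCA in capitals, from chr5:51567726-51567975, minus strand for *Ppargc1a*, and chr17:3557756-3558005, minus strand for *Tfb1m*. A match of this kind describes letters and does not show binding.
Ppargc1a: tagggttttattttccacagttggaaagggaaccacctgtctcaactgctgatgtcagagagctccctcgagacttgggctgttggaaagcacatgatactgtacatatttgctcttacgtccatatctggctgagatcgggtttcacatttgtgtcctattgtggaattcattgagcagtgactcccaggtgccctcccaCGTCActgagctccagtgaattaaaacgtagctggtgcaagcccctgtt
Tfb1m: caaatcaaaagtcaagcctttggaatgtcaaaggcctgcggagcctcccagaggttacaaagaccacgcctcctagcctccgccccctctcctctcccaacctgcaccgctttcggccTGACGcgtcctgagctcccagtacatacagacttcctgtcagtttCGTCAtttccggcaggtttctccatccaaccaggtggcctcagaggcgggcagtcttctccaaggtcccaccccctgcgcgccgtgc

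Of the 10 regulators, 9 were measured, each by at least 1 probe detected on all 6 arrays, and *Esrrg* was detected on none. In *Cmah*-null mice 6 of the 9 were lower and 3 higher. The median log2 difference was -0.13 against 0.03 over the probes detected on all arrays. In limma, 0 of the 9 had an adjusted p under 0.05, as had 0% of all probes, and 0 did under any alternative. At an unadjusted p under 0.05, *Ppargc1a* and *Tfb1m* were lower and *Nrf1* was higher. Among the 13975 probes detected on every array of a group, 6.18% were lower and 7.75% higher by that measure. The arrays of the 2 genotypes did not overlap for *Ppargc1a* and *Tfb1m*, lower in *Cmah*-null mice, and for *Ppargc1b*, higher, against 8.83% lower and 11.4% higher among those probes. An exact permutation test over the samples, two-sided, cannot go below 0.1 with 3 against 3.

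**Figure D1:**
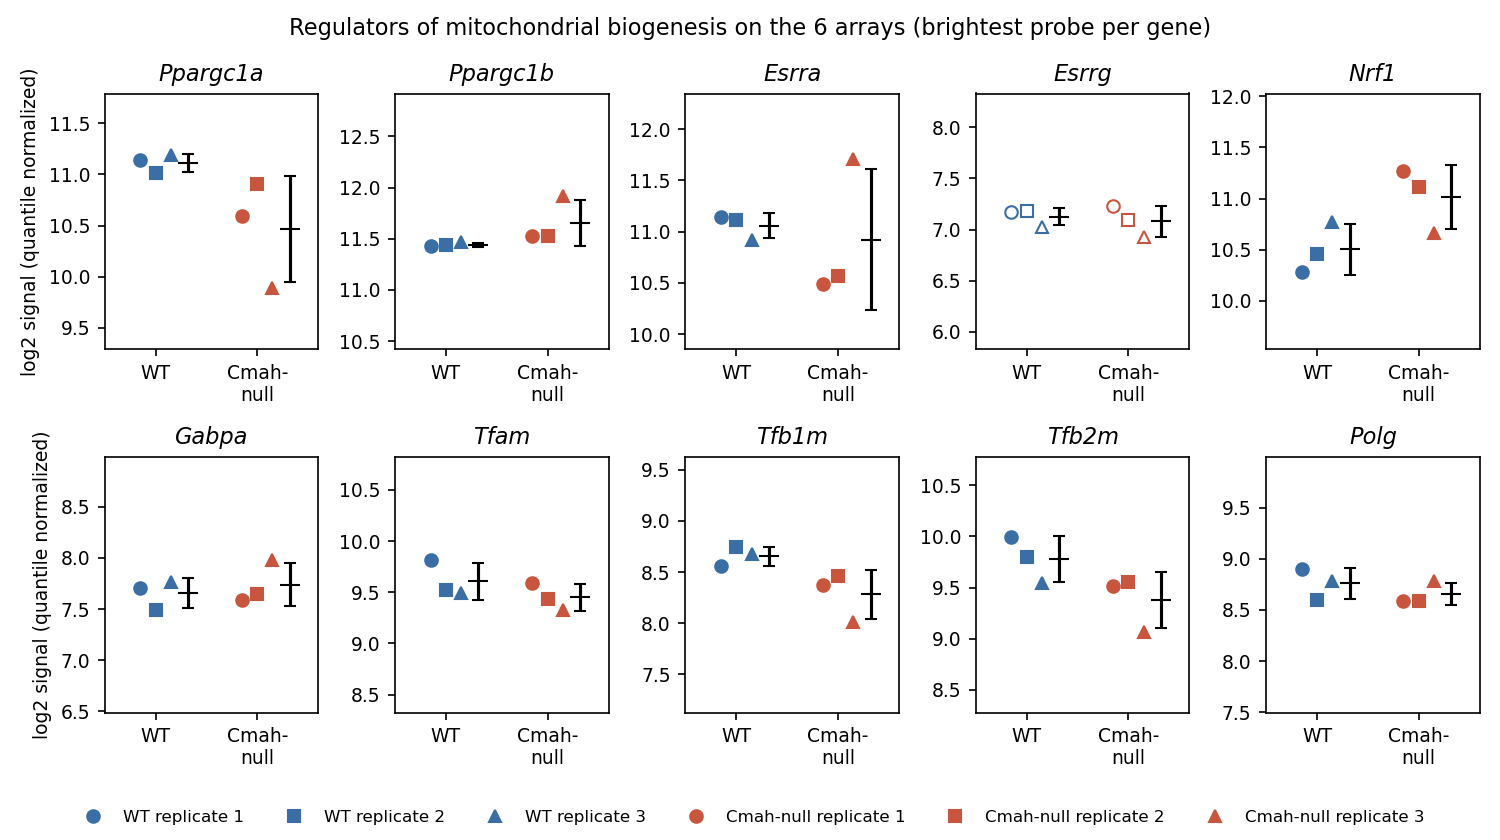
Log2 signal (quantile normalized, y axis, each panel with the same span) of the brightest probe of each of the 10 regulators on the 3 WT and 3 *Cmah*-null arrays, with the mean and SD of each group as bars beside the points. Open symbols are arrays on which the probe was not detected (*Esrrg*). The *Cmah*-null points of *Ppargc1a* and *Tfb1m* all lie below the WT points and those of *Ppargc1b* above them, and *Cmah*-null replicate 3 lies farthest out for *Ppargc1a*, *Ppargc1b* and *Esrra*.

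The coactivators lay on opposite sides of WT. *Ppargc1a* (ILMN_2710139, chromosome 5, band 5qC1) had log2 signals of 11.14, 11.02 and 11.19 in WT and of 10.59, 10.90 and 9.89 in *Cmah*-null mice. The WT arrays were close together, the *Cmah*-null arrays were spread, and the highest *Cmah*-null array was just under the lowest WT array. The means were 11.12 ± 0.09 (SD, n = 3) and 10.46 ± 0.52 (SD, n = 3), a 1.57-fold lower signal in *Cmah*-null mice. The log2 difference was -0.65 (SE 0.26, 95% interval -1.29 to -0.01, limma p 0.047, adjusted p 0.580). The bead error of the probe was 0.034 to 0.066 on the log2 scale, well under the spread among the *Cmah*-null samples. Without *Cmah*-null replicate 3 the difference was -0.37 (SE 0.12, p 0.027). The unadjusted p was 0.105, 0.083 and 0.114 without WT replicates 1, 2 and 3 and 0.073 without *Cmah*-null replicate 1, with differences of -0.64, -0.70, -0.62 and -0.72. Within the arrays with fewer beads the difference was -0.39, within those with more beads -1.21, and with the bead set as a block -0.80 (p 0.014).

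*Ppargc1b* (ILMN_2771709, chromosome 18, band 18qE1), the relative of PGC-1α that keeps up basal mitochondrial content in many tissues, had log2 signals of 11.42, 11.44 and 11.47 in WT and of 11.52, 11.53 and 11.91 in *Cmah*-null mice. Its groups did not overlap either, in the opposite direction, and the first 2 *Cmah*-null arrays were only slightly above the WT arrays. The means were 11.44 ± 0.02 (SD, n = 3) and 11.65 ± 0.22 (SD, n = 3), and the difference was 0.21 (SE 0.12, 95% interval -0.09 to 0.52, p 0.140, adjusted p 0.683). Without *Cmah*-null replicate 3 it was 0.08, so that this array gave most of it. Within the bead sets it was 0.10 and 0.46, and with the bead set as a block 0.28 (p 0.043, adjusted p 0.266).

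The gap between both coactivators was also read within each array, where scaling between arrays largely cancels. This measure was chosen after the values were seen, and only its change between arrays has a meaning, since different probes differ in brightness. The log2 ratio of *Ppargc1b* to *Ppargc1a* was 0.28, 0.42 and 0.28 in WT and 0.93, 0.62 and 2.02 in *Cmah*-null mice. The means were 0.33 ± 0.08 and 1.19 ± 0.73 (SD, n = 3 each). No test is given, since the choice of a pair of genes on opposite sides of WT fixes that the groups do not overlap. The change in the ratio was 0.86, it was 0.93 and 0.91 with the other 2 normalizations, and it was 0.45 without *Cmah*-null replicate 3 and up to 1.15 without another array.

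Of the estrogen-related receptors, *Esrra* (ILMN_2972292, chromosome 19, band 19qA) had log2 signals of 11.14, 11.11 and 10.92 in WT and of 10.49, 10.57 and 11.71 in *Cmah*-null mice. Its *Cmah*-null samples split, with 2 below every WT array and replicate 3 above every WT array. The difference over all samples was -0.13 (SE 0.34, 95% interval -0.97 to 0.70, adjusted p 0.930), and without replicate 3 it was -0.53 (SE 0.10, p 0.003, adjusted p 0.165). It was -0.61 among the arrays with fewer beads and 0.70 among those with more, where replicate 3 is the *Cmah*-null array. *Esrrg* (ILMN_1245243, band 1qH6) averaged 7.13 ± 0.08 (SD, n = 3) with *Cmah*, in WT, and 7.08 ± 0.15 (SD, n = 3) without *Cmah*, and was not above background on any array, so no fold is given. The related receptor gene *Esrrb*, known for its part in the strial marginal cells, was detected on all arrays. It was chosen for mention after its values were seen. Its log2 signals were 9.99, 9.88 and 9.89 in WT and 9.95, 9.92 and 11.08 in *Cmah*-null mice, a high value on the array of replicate 3 as for *Esrra*, with a difference of 0.39 (SE 0.32, adjusted p 0.760).

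*Nrf1* was the regulator with the largest higher value in *Cmah*-null mice. The probe (ILMN_1251184, chromosome 6, band 6qA3.3) is annotated to nuclear respiratory factor 1. Its log2 signals were 10.28, 10.46 and 10.77 in WT and 11.27, 11.11 and 10.66 in *Cmah*-null mice. *Cmah*-null replicates 1 and 2 were above all WT arrays, while replicate 3 lay below WT replicate 3. The means were 10.50 ± 0.25 (SD, n = 3) and 11.01 ± 0.32 (SD, n = 3), and the difference was 0.51 (SE 0.20, 95% interval 0.01 to 1.01, p 0.046, adjusted p 0.580). Without *Cmah*-null replicate 3 it was 0.69 (SE 0.16, p 0.007, adjusted p 0.210). The unadjusted p was 0.133, 0.113, 0.135 and 0.120 without WT replicates 1 and 2 and *Cmah*-null replicates 1 and 2 in turn, with differences of 0.40, 0.49, 0.38 and 0.46. The difference was 0.91 within the arrays with fewer beads and 0.05 within those with more, and 0.48 with the bead set as a block, where the unadjusted p was 0.088.

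*Gabpa* was dim. Of its 3 probes, ILMN_1252392 (chromosome 16, band 16qC3.3) was detected on all arrays, ILMN_2758120 on 2 WT arrays and ILMN_1221800 on none. The detected probe had log2 signals of 7.71, 7.49 and 7.77 in WT and of 7.59, 7.64 and 7.98 in *Cmah*-null mice, with overlapping groups. The difference was 0.08 (SE 0.14, 95% interval -0.26 to 0.42, adjusted p 0.892), and -0.041 without *Cmah*-null replicate 3. For ILMN_2758120 the means were 7.42 and 7.21, with no fold given, since it was not detected on any *Cmah*-null array.

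Of the regulators that act on mitochondrial DNA and its transcripts, *Tfb1m* alone had an unadjusted limma p under 0.05 over all 6 arrays. *Tfb1m* (ILMN_2690441, chromosome 17, band 17qA1) had log2 signals of 8.56, 8.74 and 8.67 in WT and of 8.37, 8.46 and 8.01 in *Cmah*-null mice. The groups did not overlap, and replicate 3 was again the lowest. The means were 8.66 ± 0.09 (SD, n = 3) and 8.28 ± 0.24 (SD, n = 3), a 1.30-fold lower signal, with a difference of -0.38 (SE 0.14, 95% interval -0.71 to -0.04, p 0.035, adjusted p 0.567). Without *Cmah*-null replicate 3 it was -0.24 (p 0.041). Without WT replicate 2, WT replicate 3 or *Cmah*-null replicate 1 the p was 0.103, 0.084 and 0.052, with differences of -0.33, -0.37 and -0.42. Within the bead sets the difference was -0.14 and -0.70.

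*Tfb2m* (ILMN_2874071, chromosome 1, band 1qH4) had log2 signals of 9.99, 9.80 and 9.55 in WT and of 9.51, 9.56 and 9.06 in *Cmah*-null mice. The groups met at one point, where *Cmah*-null replicate 2 was as high as WT replicate 3. The difference was -0.40 (SE 0.18, 95% interval -0.85 to 0.04, p 0.069, adjusted p 0.615), and -0.24 without *Cmah*-null replicate 3. In the bead sets it was -0.46 and -0.61, and it was -0.53 with the bead set as a block (p 0.003, adjusted p 0.133).

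*Tfam* and *Polg* differed by less than the spread between samples. The *Tfam* probes (band 10qB5.3) are 50 bases long and share 45 of them, so they are nearly 1 measurement. ILMN_2603178 had log2 signals of 9.82, 9.52 and 9.49 in WT and of 9.59, 9.44 and 9.33 in *Cmah*-null mice, with a difference of -0.16 (SE 0.12, 95% interval -0.46 to 0.15, adjusted p 0.750). It was -0.096 without *Cmah*-null replicate 3, -0.31 and -0.18 in the bead sets, and -0.24 with the bead set as a block (p 0.034, adjusted p 0.241). ILMN_2603182 had 9.34, 9.38 and 9.45 in WT and 9.38, 9.44 and 9.12 in *Cmah*-null mice, with a difference of -0.08 (SE 0.11, 95% interval -0.34 to 0.18, adjusted p 0.854), 0.016 without *Cmah*-null replicate 3, and 0.064 and -0.30 in the bead sets. The groups of both probes overlapped. The intervals leave room for a *Tfam* signal lower by 0.46 or higher by 0.18 on the log2 scale. *Polg* (ILMN_2765733, chromosome 7, band 7qD3) had 8.90, 8.60 and 8.78 in WT and 8.59, 8.59 and 8.78 in *Cmah*-null mice, with a difference of -0.11 (SE 0.11, 95% interval -0.38 to 0.16, adjusted p 0.806), -0.17 without *Cmah*-null replicate 3, and -0.31 and 0.092 in the bead sets.

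**Figure D2:**
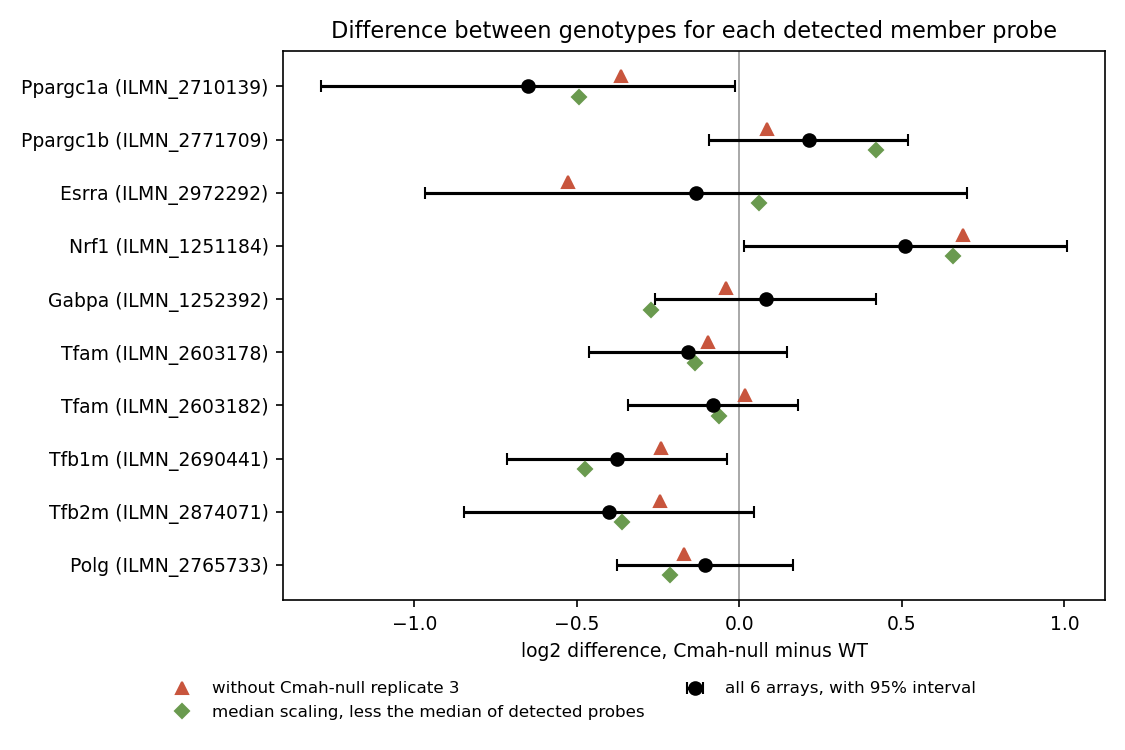
Log2 difference, *Cmah*-null minus WT (x axis), of the 10 regulator probes detected on all arrays. Black points and bars are the values over 6 arrays with their 95% intervals, red triangles those without *Cmah*-null replicate 3, and green diamonds those after median scaling in place of quantile normalization, less the median of the detected probes under that scaling. The intervals of *Ppargc1a*, *Tfb1m* and *Nrf1* end just short of 0 and the others cross it, and *Esrra* moves the most without replicate 3, from -0.13 to -0.53.

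The direction of the smaller differences rested on the scaling between arrays. With arrays scaled to the same median and no quantile step, the probes detected on all arrays had a median difference of 0.30. *Ppargc1a*, *Tfb1m* and *Tfb2m* were then at -0.19, -0.18 and -0.06, and *Esrra*, both *Tfam* probes and *Polg* turned to 0.36, 0.16, 0.24 and 0.085. Relative to the median of the detected probes, *Ppargc1a* was at -0.49, *Tfb1m* at -0.48, *Tfb2m* at -0.36, *Polg* at -0.21, the *Tfam* probes at -0.14 and -0.06, *Esrra* at 0.06, *Ppargc1b* at 0.42 and *Nrf1* at 0.66. In that reading *Gabpa* was at -0.27, where the deposited values gave 0.08. Before the subtraction its value under median scaling was 0.026, so the -0.27 is mostly the subtracted median of 0.30.

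The genes that surround the regulators were counted in 4 lists, each gene by its brightest probe, and the shares of all detected probes given above (6.18% and 7.75% by p, 8.83% and 11.4% without overlap) are the background of their counts. None of these genes had an adjusted p under 0.05. A gene counted as measured where its probe was detected on every array of at least 1 group, so its signal in the other group could be background. The first held 20 genes of mitochondrial DNA copying, maintenance and transcription, of which 18 were measured. Of these, 13 were lower and 5 higher without *Cmah*, and 4 were lower at an unadjusted p under 0.05 and 0 higher, with a median of -0.20, or -0.071 without *Cmah*-null replicate 3. The groups did not overlap for 7 genes, all lower. *Slirp*, which with *Lrpprc* protects mitochondrial messenger RNAs, had log2 signals of 10.82, 11.79 and 11.64 in WT and 10.71, 10.57 and 10.07 in *Cmah*-null mice, with a difference of -0.96 (SE 0.30, adjusted p 0.528). *Lrpprc* had a difference of -0.44 (SE 0.15, adjusted p 0.549). *Mterf2* and *Mterf4*, of the family of mitochondrial termination factors, had differences of -0.61 (SE 0.16, adjusted p 0.450) and -0.50 (SE 0.34, adjusted p 0.724), and *Mterf4* overlapped between groups. Named after their values were seen, *Polrmt*, the mitochondrial RNA polymerase itself, had a difference of 0.37 (SE 0.27, adjusted p 0.736), and *Twnk*, the mitochondrial helicase, had -0.21 (SE 0.08, adjusted p 0.567). *Twnk* was detected on the 3 WT arrays and on no *Cmah*-null array. It is 1 of the 4 lower genes by p and 1 of the 7 without overlap, though its *Cmah*-null signal was not above background. *Polrmt* was at 12.74 on the array of *Cmah*-null replicate 3 and between 11.68 and 11.84 on the other 5.

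The second list held 26 partners of the coactivators and regulators above them, of which 18 were measured, 9 lower and 9 higher, with a median of 0.01, or -0.052 without *Cmah*-null replicate 3. At an unadjusted p under 0.05, 3 were lower and 1 was higher, and 4 did not overlap, all lower. *Prkaa2*, a catalytic subunit of the energy sensor AMPK, which phosphorylates PGC-1α, had log2 signals of 9.66, 10.05 and 8.97 in WT and 8.28, 8.58 and 8.03 in *Cmah*-null mice. All *Cmah*-null arrays were lower, by -1.26 (SE 0.30, adjusted p 0.422). *Pparg*, the receptor through which PGC-1α was found, had 11.67, 10.39 and 11.12 against 10.32, 10.09 and 9.21, a difference of -1.19 (SE 0.42, adjusted p 0.555). *Gabpb2*, a partner subunit of GABP, had a difference of -0.63 (SE 0.20, adjusted p 0.529), and *Sin3a*, a corepressor scaffold, of 0.44 (SE 0.17, adjusted p 0.569). *Sirt1*, the deacetylase that activates PGC-1α, named after its values were seen, had a difference of 0.22 (SE 0.15, adjusted p 0.724).

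The last 2 lists held genes known as targets. Of 17 genes known to be driven by NRF1 or GABP, 14 were measured, of which 13 were lower and 1 was higher without *Cmah*. The median was -0.65. At an unadjusted p under 0.05, 6 were lower, and 7 did not overlap, all lower. *Sdhb*, the iron-sulfur subunit of complex II, had log2 signals of 11.87, 11.69 and 11.26 in WT and 10.66, 10.58 and 10.32 in *Cmah*-null mice, a difference of -1.09 (SE 0.18, adjusted p 0.379). *Cycs*, which encodes cytochrome c, had 8.83, 10.03 and 9.68 against 8.32, 8.27 and 8.47, a difference of -1.16 (SE 0.31, adjusted p 0.454). *Cox6c*, of complex IV, had a difference of -1.07 (SE 0.33, adjusted p 0.524) and *Uqcrh*, of complex III, of -1.18 (SE 0.54, adjusted p 0.620). The value of *Uqcrh* rested on *Cmah*-null replicate 3, which had 10.92 where the other *Cmah*-null arrays had 12.85 and 12.82 and the WT arrays 13.24 to 13.49. Without that replicate the median of the list was -0.36.

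Of 15 genes known as targets of PGC-1 and ERR, 14 were measured, 13 lower and 1 higher, with a median of -0.52. *Ucp3*, counted as lower, was detected on the 3 WT arrays and on 1 *Cmah*-null array. At an unadjusted p under 0.05, 3 were lower, and 4 did not overlap, all lower. *Acadm*, which starts the oxidation of medium-chain fatty acids, had log2 signals of 14.68, 13.97 and 14.19 in WT and 13.33, 13.35 and 12.86 in *Cmah*-null mice, a difference of -1.10 (SE 0.23, adjusted p 0.397). *Sod2*, the superoxide dismutase of mitochondria, had a difference of -0.72 (SE 0.23, adjusted p 0.529). *Ckmt2*, the mitochondrial creatine kinase of muscle, and *Cpt1b*, the muscle carnitine palmitoyltransferase, had differences of -0.83 (SE 0.39, adjusted p 0.626) and -0.69 (SE 0.46, adjusted p 0.715), with overlapping groups. Without WT replicate 1 the median of the list was -0.29, and without *Cmah*-null replicate 3 it was -0.58. Under median scaling the medians of the 4 lists, in the order given, were 0.11, 0.35, -0.26 and -0.15, where that of the detected probes was 0.30.

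**Figure D3:**
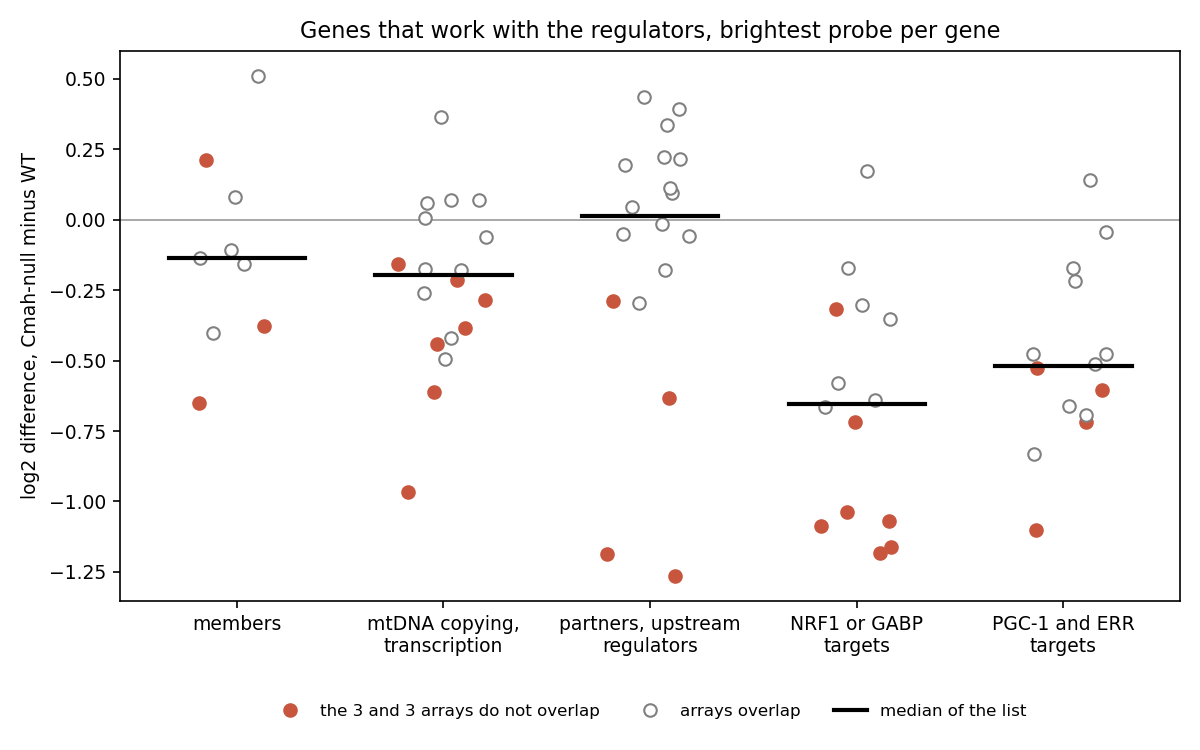
Log2 difference, *Cmah*-null minus WT (y axis), of each measured gene of the 9 regulators and the 4 lists around them. Filled points are genes whose 3 WT and 3 *Cmah*-null arrays do not overlap, open points genes whose arrays do, and bars are medians. The medians are -0.13 for the regulators, -0.20 and 0.01 for the next 2 lists, and -0.65 and -0.52 for the target lists, where 13 of 14 genes lie below 0 in each.

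Markers of other tissues differed alongside these values. The shares of all detected probes given above (6.18% and 7.75% by p, 8.83% and 11.4% without overlap) are the background of the marker counts too. In bulk tissue fewer cells of a type and less RNA per cell cannot be told apart. Of 7 brown fat markers 5 were measured, all lower in *Cmah*-null mice (median -1.44), and 3 did not overlap, while *Prdm16* and *Dio2* were detected on no array. *Elovl3*, counted as measured and lower, was detected on the 3 WT arrays and on 1 *Cmah*-null array. The summed signal of all 7 on the linear scale was 34944 to 56358 in WT and 7781 to 20863 in *Cmah*-null mice, with no overlap. Sums here and below are over all matched markers of a list, undetected ones included. *Ucp1*, the uncoupling protein that defines brown fat, had log2 signals of 13.63, 12.48 and 11.79 against 10.82, 10.84 and 9.90, a difference of -2.11 (SE 0.52, adjusted p 0.433). *Cidea* had a difference of -2.01 (SE 0.42, adjusted p 0.397) and *Cox8b* of -1.44 (SE 0.51, adjusted p 0.551). The value of *Cox8b* is the median of the list, and it was the brightest of these markers on every array. It therefore weighs most in the sum, and the paper also lists it among genes of cardiac muscle contraction. Which tissue of the sample gave the signal of each marker was not tested. The summed signal was lowest on the array of *Cmah*-null replicate 3, as was *Ppargc1a*. Among the WT arrays replicate 3 had the lowest sum, where *Ppargc1a* was highest. *Otop1* had 9.76 on the array of *Cmah*-null replicate 3, against 8.83 and 8.46 on the other *Cmah*-null arrays. Without *Cmah*-null replicate 3 the median of the list was -1.07. The part of brown fat in the values of *Ppargc1a* and the target lists was not tested.

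The 12 skeletal muscle markers were all measured and all lower, with a median of -0.65 (-0.81 without *Cmah*-null replicate 3), none at an unadjusted p under 0.05 and none without overlap. Their summed signal was 316319, 333638 and 164240 in WT and 167681, 168695 and 199395 in *Cmah*-null mice, so that WT replicate 3 was the lowest array of all. *Mylpf*, a fast myosin light chain, had a difference of -1.65 (SE 0.92, adjusted p 0.674), *Casq1* of -1.31, *Myh4* of -1.19 and *Eno3* of -0.94. The part of muscle in the values of the PGC-1 and ERR targets, some of them muscle isoforms, was not tested. Of the 8 markers of fat in general 6 were measured, 5 lower and 1 higher, with a median of -0.65 (-0.41 without *Cmah*-null replicate 3) and summed signals of 52394 to 82081 in WT and 41272 to 72142 in *Cmah*-null mice, and *Retn* was detected on no array. *Lep* had a difference of -1.49 (SE 0.52, adjusted p 0.550), *Adipoq* of -1.20, *Cidec* of -0.77 and *Plin1* of -0.52.

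The 4 measured hair cell markers had a median difference of 0.45, or 0.22 without *Cmah*-null replicate 3. The other 4 of the list, *Pou4f3*, *Atoh1*, *Slc26a5* and *Strc*, which define hair cells, were detected on no array. The values of this list therefore do not show the amount of hair cells. *Otof* had a difference of 0.55 (SE 0.19, p 0.031, adjusted p 0.554) and *Gfi1* of 0.43 (SE 0.14, p 0.026, adjusted p 0.545). *Espn* had 0.48 (SE 0.33, p 0.195) and *Myo7a* 0.09 (SE 0.10, p 0.449). Groups overlapped for each of these genes but *Gfi1*. Of all detected probes, 7.75% were higher by p and 11.4% higher without overlap. The summed signal of all 8 markers of the list was 2489 to 2968 in WT and 3003 to 4611 in *Cmah*-null mice. Of the 10 cochlear support and stria markers 4 were lower and 6 higher, with a median of 0.16 (0.15 without *Cmah*-null replicate 3) and overlapping sums of 26820 to 39964 and 34748 to 38330, and *Otor* and *Tectb* were detected on no array. *Otos* had a difference of -0.65, *Coch* of -0.64, *Gjb2* of 0.57 and *Epyc* of -0.42. Of 6 measured neuron markers 5 were lower and 1 higher, with a median of -0.16 (0.0058 without *Cmah*-null replicate 3) and sums of 27835 to 41380 and 31887 to 32827. *Nefm* had -0.62, *Uchl1* -0.49, *Syt1* -0.19 and *Eno2* 0.16, and *Nefl* and *Snap25* were detected on no array. The 10 blood and marrow markers had a median of -0.021 (0.39 without *Cmah*-null replicate 3), with 6 lower and 4 higher and sums of 159775 to 196442 and 156829 to 172160. *Hbb-b1* had 12.87, 13.53 and 13.51 in WT and 12.68, 12.78 and 11.43 in *Cmah*-null mice. *Mpo* had a difference of 0.92, *Elane* of 0.71 and *Ngp* of 0.69. The part of these cells in the values of the regulators was not tested.

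**Figure D4:**
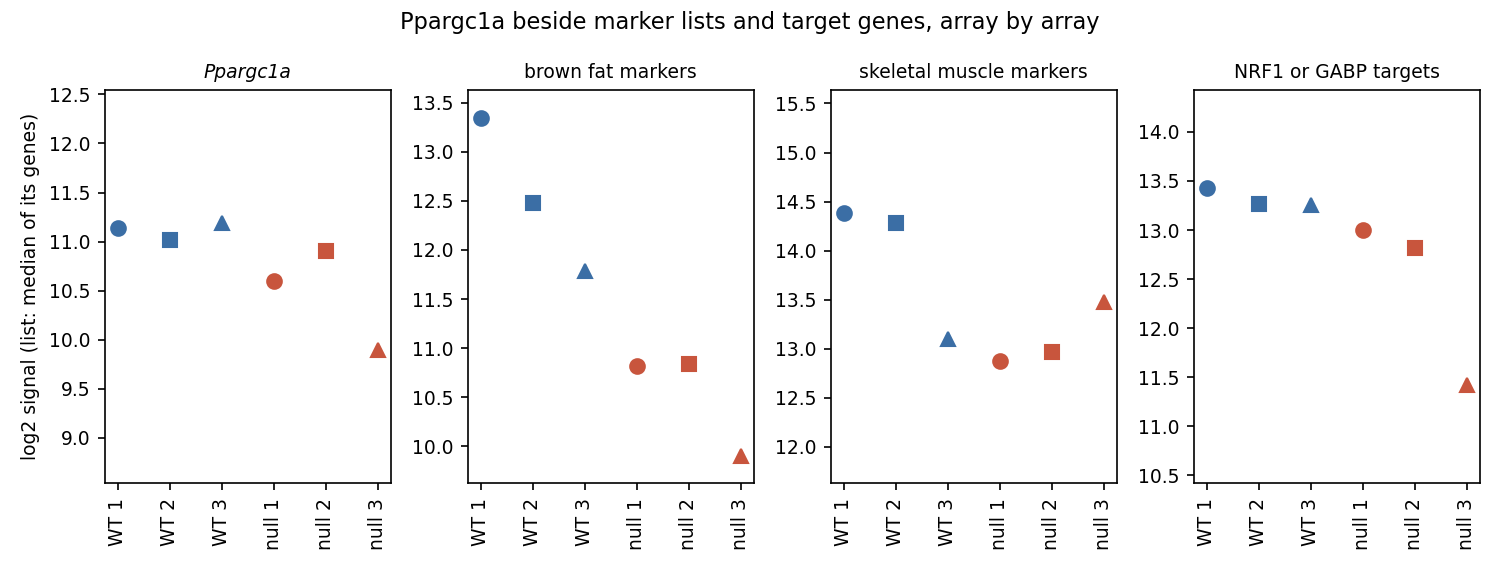
Log2 signal on each array (x axis, 3 WT then 3 *Cmah*-null, labelled null) of *Ppargc1a* and the median log2 signal of the measured brown fat markers, skeletal muscle markers and NRF1 or GABP targets (y axes, each panel with the same span). *Ppargc1a*, the brown fat markers and the NRF1 or GABP targets are lowest on the array of *Cmah*-null replicate 3, with 9.89, 9.90 and 11.42, while the muscle markers have 13.48 there and 12.88 on that of *Cmah*-null replicate 1.

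The genes whose signal followed that of *Ppargc1a* and *Tfam* most closely were looked up by the brightest probe among 9909 genes (ILMN_2603178 for *Tfam*), as a description over 6 arrays that share their scaling. For *Ppargc1a* these were *Rora*, a nuclear receptor of the circadian clock (Pearson r 0.990), *Polr2f*, a shared RNA polymerase subunit (r 0.989), and *Xpa*, a DNA repair factor (r 0.989), and 411 genes had an r over 0.9. *Rora* had log2 signals of 11.21, 11.22 and 11.36 in WT and 10.61, 10.93 and 9.97 in *Cmah*-null mice, nearly the same steps as *Ppargc1a*. Like *Ppargc1a*, at 9.89, *Rora*, *Polr2f* (10.51) and *Xpa* (10.10) were lowest on the array of *Cmah*-null replicate 3. That array weighs on each r, and r was not computed without it. For *Tfam* they were *Mrrf*, which recycles mitochondrial ribosomes (r 0.987), *Ube2g1* (r 0.981) and *Calr3* (r 0.981), with 94 genes over 0.9. *Mrrf* had 8.50, 8.11 and 8.10 in WT and 8.25, 8.07 and 7.84 in *Cmah*-null mice, highest in WT replicate 1 as was this *Tfam* probe, while ILMN_2603182 was lowest of the WT arrays there.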

How the data were processed

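Total RNA of 3 WT and 3 *Cmah*-null cochlear samples was labelled with biotin (Ambion's Illumina kit) and hybridized to bead arrays. The authors deposited a raw table of intensity values (average bead signal, linear, no background subtraction), with bead error, bead number and the detection p-value of the scanner software. The log2 values of the other deposited table were checked to be the raw signals after quantile normalization alone, to within 5.0e-07. Its 12 columns that repeat signals and detection p, and the authors' own fold change, LPE statistic and adjusted p, were not used. Log2 values were compared with limma 3.58.1 in R 4.3.3 (two-sided, without covariates), and p-values were adjusted by Benjamini-Hochberg over the 25697 probes. Single values had an exact permutation test over samples. The number of arrays limits the precision. The members, lists and tests were chosen with earlier results of these data known. Named genes are the 10 regulators, up to 4 genes of each list with the largest difference among those detected on every array of a group, the 3 genes most like *Ppargc1a* and *Tfam*, and *Cmah*. In the lists, 9 genes had no probe by symbol or Entrez number, and 11 had an older symbol on the array. The correlation of deviations between same-numbered samples was 0.02, -0.17 and 0.01. With *Cmah*-null replicate 3 far from replicates 1 and 2, this check could not exclude a pairing by number. The samples were compared unpaired. Alternatives were neqc (offset 16), median scaling, a filter on detection on at least 3 arrays, blocks for replicate number and bead set, averaging *Cmah*-null replicates 1 and 2, each array left out, other variance estimates and the mean of a gene's probes. The fits were tested on simulated data, where the noise of a probe was independent and equally large on all arrays. That setting holds no outlying array and no close pair, as *Cmah*-null replicate 3 and replicates 1 and 2 were. It therefore cannot vouch for the p-values of these data. Python 3.11.15 with matplotlib 3.10.9 made the figures.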

Additional observations from a re-analysis of the deposited data

How the results depend on the processing

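No regulator had an adjusted p under 0.05 in limma under any alternative run, so what moved was the unadjusted count and the sign of small differences. The 2 lower regulators at an unadjusted p under 0.05 became 1 with neqc and with the filter on detection, 0 with median scaling, with a variance prior with trend and with an ordinary test per probe, 4 with the bead set as a block (*Ppargc1a*, *Tfam*, *Tfb1m* and *Tfb2m*), and 0 to 3 with 1 array left out (3 without *Cmah*-null replicate 3, *Ppargc1a*, *Esrra* and *Tfb1m*). The 1 higher regulator became 0 with neqc, the filter, averaging *Cmah*-null replicates 1 and 2, the variance prior with trend and the ordinary test, 2 with median scaling (*Ppargc1b* and *Nrf1*), and 0 to 1 with 1 array left out. With the bead set as a block it was again 1, but *Ppargc1b* in place of *Nrf1*. The main comparison did not pair same-numbered samples, and with the replicate number as a block 2 regulators were lower (*Tfb1m* and *Tfb2m*) and 0 higher. Median scaling moved the median of the regulators from -0.13 to 0.085, those of the lists of mitochondrial DNA genes and of partners to 0.11 and 0.35, and the WT mean of *Ppargc1a* to 10.87, and it turned *Esrra* to 0.36, the *Tfam* probes to 0.16 and 0.24 and *Polg* to 0.085; that scaling also moved the median of all detected probes to 0.30. *Esrra* turned to 0.042 with the bead block and to 0.063 with *Cmah*-null replicates 1 and 2 averaged, and ranged from -0.53 to 0.083 with 1 array left out. With 1 array left out *Gabpa* ranged from -0.041 to 0.15 and the second *Tfam* probe from -0.14 to 0.016. The cause was not tested. *Ppargc1a*, *Ppargc1b*, *Nrf1*, *Tfb1m* and *Tfb2m* kept their sign under all alternatives run. Signal over background limits *Gabpa* and *Esrrg*, and 3 arrays a group limit the rest.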
